A study of Mus musculus with 4 samples.

Results

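The BCL2 family and caspase-9 decide, at the outer membrane of the mitochondrion, whether a stressed cell enters apoptosis. Pro-survival members hold the pore-forming effectors Bax and Bak1 in check, the BH3-only proteins sense damage and relieve that hold, and an open pore releases cytochrome c, which assembles the apoptosome and activates caspase-9. Adult neurons keep this route under tight restraint and lean on individual pro-survival proteins, with Bcl-xL and Mcl-1 the best known of them. RNA levels do not show this control directly, since most of it acts on the proteins themselves.

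Transcripts of 9 such genes are described here among the 29300 genes counted in the mouse hippocampus. They are the guardians Bcl2, Bcl2l1 and Mcl1, the effectors Bax and Bak1, the BH3-only genes Bad, Bid and Bcl2l11, and the initiator caspase gene Casp9, taken by name. All 9 were found in the table by symbol, and all 9 had enough reads to be tested. The mice were C57BL/6 males of 7 to 8 months, and hippocampi were taken on day 1. The control mice (sham, n = 2) received 2.1% isoflurane and 30 mg/kg tramadol without an operation. The surgery mice (n = 2) received the same anesthesia and analgesia together with an open fracture of the tibia fixed by an intramedullary nail, as a model of perioperative neurocognitive disorder (PND). Both groups therefore carry the anesthetic and the opioid, and mice without either were not analysed here. Nothing in the labels says that tissue was pooled, so each library is taken as 1 mouse. The p-values measure only the spread between these libraries, which may be technical in part.

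Levels are given as CPM, read counts relative to the size of a library, after scaling by edgeR's TMM method, and differences as the log2 fold change of surgery over control mice with its standard error (SE). A gene is called changed where the adjusted p-value of edgeR's quasi-likelihood test was under 0.05 and the fold change was at least 1.5 or at most 0.67. By this rule 9.01% of the 17144 genes tested were called, 6.75% as higher and 2.25% as lower in the surgery mice (1158 and 386 genes, or 1377 and 224 with scaling by library totals only). By the adjusted p-value alone it was 26.0%, with 13.1% higher and 12.8% lower.

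The 4 libraries held 15763432 to 18573386 counts. Neuronal and hippocampal field markers were present in every library, and no listed marker was at 0 in all of them. The summed level of 4 choroid plexus markers was 121 and 5304 CPM in the control mice and 1997 and 3384 CPM in the surgery mice, so that the first control library stood apart. The oligodendrocyte markers summed to 3082 CPM in the second surgery library and to between 4324 and 5017 CPM in the other libraries. Neither of these lists separated the groups. Other lists did. The sums of 5 neuronal markers (5735 and 5540 CPM in control mice, 5341 and 5099 CPM in surgery mice), 5 markers of hippocampal fields (670 and 639 against 617 and 535 CPM) and 4 astrocyte markers (2142 and 2204 against 1919 and 1849 CPM) were lower in both surgery libraries. The sum of 4 endothelial markers (144 and 146 against 155 and 197 CPM) was higher in both. These lists did not move as one. Among neuronal markers Slc17a7 (-0.39), Rbfox3 (-0.17) and Gad1 (-0.08) had negative values and Snap25 (0.008) and Syt1 (0.02) small positive ones. The median of the neuronal list was -0.08. Among field markers Fibcd1 (-0.64) and Wfs1 (-0.70) were called lower and Prox1 (0.43) and Neurod6 (0.53) had positive log2 fold changes. Among astrocyte markers Aldoc (-0.50) and Gfap (-0.28) had negative values, Slc1a3 (0.22) a positive one, and Aqp4 (0.73) was called higher, with a list median of -0.03. Among endothelial markers Flt1 (0.41), Pecam1 (0.38) and Cdh5 (0.30) had positive values and Cldn5 (-0.11) a negative one, and 0 were called. The microglial markers summed to 196 and 186 CPM against 184 and 186 CPM and the neutrophil markers to 9.52 and 14.8 CPM against 2.07 and 9.54 CPM. Of the microglial genes P2ry12 was called higher (0.84), while Cx3cr1 (-0.30), Csf1r (-0.15) and Tmem119 (-0.14) had negative values. Of the neutrophil genes Ltf was called lower (-1.63), and S100a8 (-0.92), S100a9 (-0.85) and Ngp (-0.81) had negative values too. The part of these shifts in the values below was not tested. In bulk tissue, fewer cells of a type and less RNA per cell cannot be told apart.

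The libraries also differed in a way that followed transcript composition. GC-rich transcripts had lower fold changes than GC-poor ones, with a Spearman's rho of -0.64 over 17120 tested genes of known sequence. That value is taken across genes, and these are no independent replicates. The 9 genes lay along this trend, with rho -0.80 over 9 points that share the same 4 libraries. The differences of the 9 genes, and of the other pathway genes named, are therefore given also from a fit in which the trends of each library with GC content and transcript length were removed, under which 0.916% of all genes were called. What lay behind the trend was not tested.

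The promoters of the 3 genes whose difference passed the adjusted p threshold, Mcl1, Bcl2 and Bak1, are shown, and they differ in composition. With GC content and length corrected only Mcl1 of these passed. Whether the promoters have a part in the RNA differences was not tested. Each run covers 250 bases before and 50 bases after the RefSeq start site (GRCm38.p6), printed 5′ to 3′ on the strand of the gene, at chr3:95658471-95658770 (plus strand) for Mcl1, chr1:106714241-106714540 (minus strand) for Bcl2 and chr17:27028578-27028877 (minus strand) for Bak1. Capitals mark GGGCGG (the GC box that SP factors bind), TGACG (the core shared by cAMP response elements) and TATAAA, on either strand.
Mcl1: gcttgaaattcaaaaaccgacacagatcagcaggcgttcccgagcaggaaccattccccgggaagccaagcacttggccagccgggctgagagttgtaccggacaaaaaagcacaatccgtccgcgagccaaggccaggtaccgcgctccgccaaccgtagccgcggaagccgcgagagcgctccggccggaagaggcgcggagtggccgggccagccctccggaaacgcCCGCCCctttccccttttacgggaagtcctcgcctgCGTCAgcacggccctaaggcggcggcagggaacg
Bcl2: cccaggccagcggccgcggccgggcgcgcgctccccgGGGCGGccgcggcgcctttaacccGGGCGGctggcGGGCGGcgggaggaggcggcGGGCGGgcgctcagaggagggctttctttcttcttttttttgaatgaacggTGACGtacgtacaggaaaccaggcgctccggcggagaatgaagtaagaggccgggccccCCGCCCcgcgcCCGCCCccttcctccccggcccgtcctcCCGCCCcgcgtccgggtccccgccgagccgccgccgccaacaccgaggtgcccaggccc
Bak1: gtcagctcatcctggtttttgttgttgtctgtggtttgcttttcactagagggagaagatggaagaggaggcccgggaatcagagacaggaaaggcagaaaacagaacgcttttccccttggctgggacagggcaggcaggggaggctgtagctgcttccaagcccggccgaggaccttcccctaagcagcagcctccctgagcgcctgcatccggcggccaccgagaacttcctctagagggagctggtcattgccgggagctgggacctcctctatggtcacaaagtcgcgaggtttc
The Bcl2 promoter had a GC content of 76.0%, 44 CpG dinucleotides, 7 GC boxes and 1 TGACG. The Mcl1 promoter had a GC content of 65.7%, 33 CpG dinucleotides, 1 GC box and 1 TGACG. The Bak1 promoter had a GC content of 58.3% and 11 CpG dinucleotides, and none of the 3 letter runs occurs in it. Its RefSeq start lies 382 bases from the 5′ end of the gene in the deposited table, so the window may not be the promoter used in this tissue. Over 32851 mouse promoters of the same length, the median GC content was 52.7% and the median number of CpG dinucleotides 7, and 35.7% held GGGCGG, 20.8% TGACG and 13.6% TATAAA. These matches describe the letters only, and binding was not measured here.

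**Figure D1:**
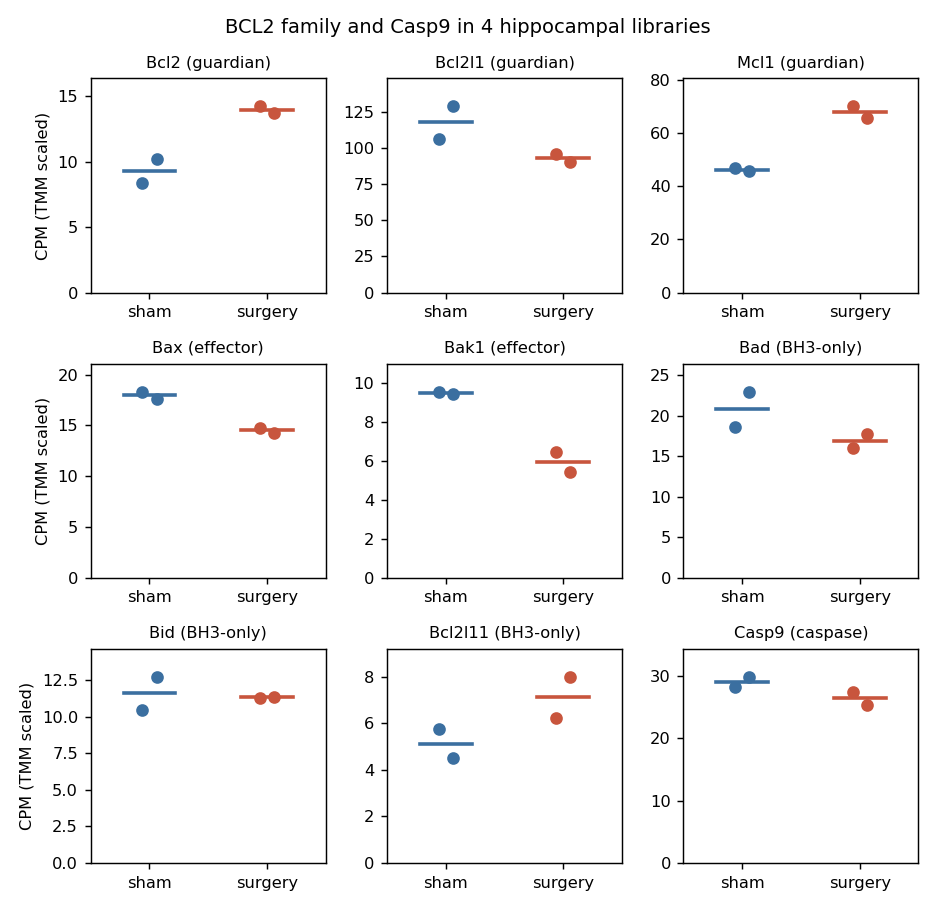
Each panel plots the level of one gene (CPM after TMM scaling, vertical axis from 0) in the 2 control (sham, blue) and the 2 surgery mice (red), with points for mice and a bar for the group mean. For Bid alone the groups overlap, and for Mcl1 the surgery mice reach 69.9 and 65.5 CPM against 46.6 and 45.6 CPM.

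The guardians did not move as one group. Mcl1 and Bcl2 were higher in both surgery mice, while Bcl2l1, the most abundant of the 3, had lower values in both. By adjusted p-value Mcl1 and Bcl2 rose, and of these only Bcl2 also reached the fold threshold, by a small margin.

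Mcl1 (ENSMUSG00000038612, chr3:95658788-95663176, plus strand, in mm10 as for all genes here) encodes a short-lived guardian that binds Bak1 and Bcl2l11 proteins. Its level was 46.6 and 45.6 CPM in the control mice and 69.9 and 65.5 CPM in the surgery mice, from 803, 833, 1115 and 1106 reads. The groups were far apart, with a much smaller distance between mice of a group. Mcl1 rose by 0.55 on the log2 scale (SE 0.08, edgeR adjusted p = 0.0057), a fold of 1.47 that lay just under the threshold of 1.5. Its adjusted p stayed under 0.05 in each of the 14 alternative fits, from 9.9e-05 to 0.030, leaving out each mouse included. With GC content and length corrected the difference was 0.61 (adjusted p = 0.030), and Mcl1 was then called. It was called in 4 of the 14 alternatives, among them that without the second surgery mouse (0.61).

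Bcl2 (ENSMUSG00000057329, chr1:106538178-106714274, minus strand) is the founding guardian of the family and a low-abundance transcript in this tissue. It reached 8.36 and 10.2 CPM in the control mice and 14.2 and 13.7 CPM in the surgery mice, from 144, 187, 227 and 232 reads. The groups did not overlap, and the control mice differed more from each other than the surgery mice did. Bcl2 rose by 0.59 on the log2 scale (SE 0.16, edgeR adjusted p = 0.036), and its fold change lay at the threshold of 1.5 itself. The call held in 4 of 14 alternative fits, and the adjusted p was under 0.05 in 7. The call was lost with GC content and length corrected (0.34, adjusted p = 0.27) and with DESeq2 (adjusted p = 0.069). It was also lost without the first control mouse (0.45, adjusted p = 0.14), without the first surgery mouse (0.55, 0.095) and without the second surgery mouse (0.62, 0.075). The antisense transcript D630008O14Rik could alter the Bcl2 counts over 558 overlapping bases, since use of strand in counting is not given in the sources used here.

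Bcl2l1 (ENSMUSG00000007659, chr2:152780668-152831728, minus strand) encodes Bcl-xL, the guardian that mature neurons depend on. Its level was 106 and 129 CPM in the control mice and 96.0 and 90.1 CPM in the surgery mice, from 1834, 2353, 1531 and 1520 reads. Both surgery mice lay below both control mice, but the control mice differed more from each other than the nearest mice of the groups did. The difference was -0.34 (SE 0.10) with an edgeR adjusted p of 0.052, which did not pass. The adjusted p was under 0.05 in 7 of 14 alternative fits, DESeq2 among them (0.019), and the fold threshold was reached in 0 of the 14. It was -0.47 without the first control mouse (adjusted p = 0.013) and -0.20 without the second (adjusted p = 0.20), and with GC content and length corrected it was -0.18 (adjusted p = 0.33).

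**Figure D2:**
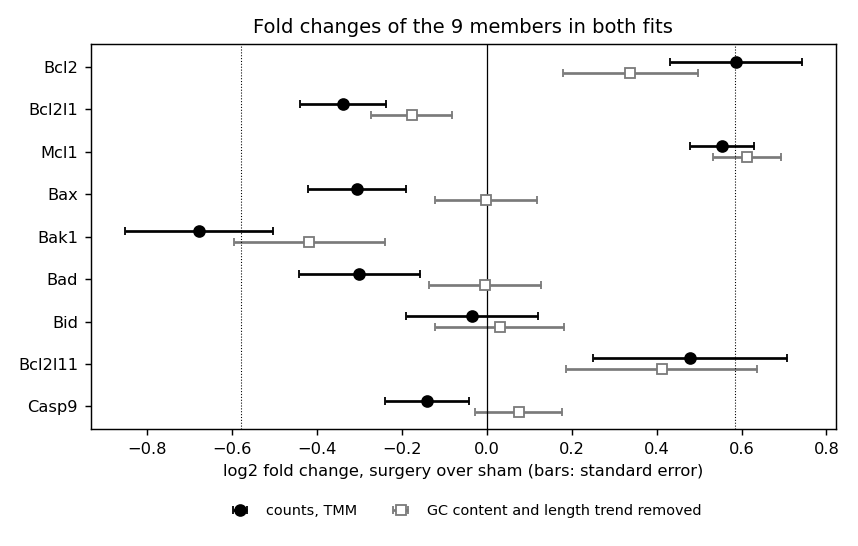
Points give the log2 fold change of surgery over control mice for the 9 genes, from the uncorrected fit and from the fit with GC content and length offsets, bars give the standard error, and dotted lines mark the fold thresholds. Bcl2 and Bak1 move toward 0 with the correction, Bax and Bad reach about 0, and Mcl1 stays near 0.6.

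Both effectors had lower values in both surgery mice, and Bak1 alone passed the test. Bak1 (ENSMUSG00000057789, chr17:27019810-27029009, minus strand) encodes the effector that sits in the outer mitochondrial membrane before any signal. Its level was 9.58 and 9.46 CPM in the control mice and 6.46 and 5.45 CPM in the surgery mice, from 165, 173, 103 and 92 reads. The control mice were nearly equal, and the groups did not overlap. Bak1 fell by 0.68 on the log2 scale (SE 0.17, edgeR adjusted p = 0.033), to 0.625 of the control level. The call held in 7 of 14 alternative fits, and the fold change stayed between -0.82 and -0.55 when each mouse was left out. It was lost without the first control mouse (adjusted p = 0.091), without the second control mouse (0.10), without the second surgery mouse (0.13), with DESeq2 (0.071) and with GC content and length corrected (-0.42, adjusted p = 0.23). The gene overlaps Ggnbp1 on the opposite strand over 614 bases, and reads of these genes cannot be told apart there without strand.

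Bax (ENSMUSG00000003873, chr7:45461697-45466898, minus strand) encodes the effector that moves from the cytosol to the mitochondrion on activation. Its level was 18.3 and 17.6 CPM in the control mice and 14.8 and 14.3 CPM in the surgery mice, from 316, 322, 236 and 241 reads. The groups did not overlap, and the spread within each was under 1 CPM. The difference of -0.31 (SE 0.12) did not pass the test (edgeR adjusted p = 0.099). With GC content and length corrected it was -0.003 (SE 0.12, adjusted p = 0.99). Bax has the highest transcript GC content of the 9 genes, at 59.0%, and 6.84% of its sequence windows of 75 bases also occur in another gene, Gm45808 on the same strand.

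**Figure D3:**
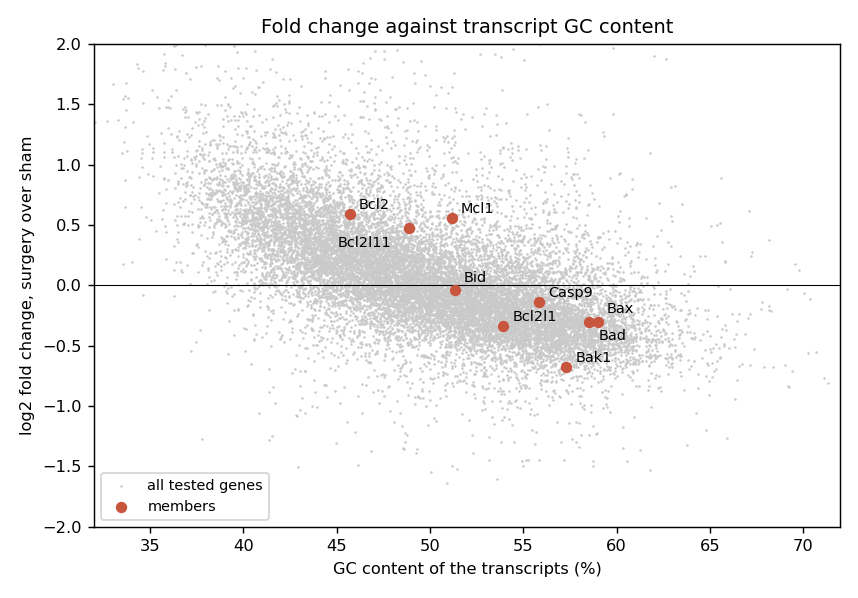
The log2 fold change of surgery over control mice is plotted against the GC content of the transcripts (%) for all tested genes (grey) and the 9 genes (red), with 86 genes outside the axes. The red points follow the grey slope from Bcl2 at 45.7% to Bax at 59.0%, and Mcl1 and Bak1 lie above and below the bulk of genes of their GC content.

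Of the 3 BH3-only genes, 0 passed edgeR's adjusted p threshold, 0 passed DESeq2's, and 0 had an unadjusted edgeR p under 0.05, which 39.4% of all genes had. Bad (ENSMUSG00000024959, chr19:6941861-6951898, plus strand), whose protein binds Bcl-xL when growth factor signaling is withdrawn, had 18.6 and 23.0 CPM in the control mice and 16.1 and 17.7 CPM in the surgery mice. The second control mouse was the highest, and the control mice were further from each other than the nearest mice of the groups were. The difference was -0.30 (SE 0.14, edgeR adjusted p = 0.17) and -0.003 with GC content and length corrected (adjusted p = 0.99). Leaving out the first control mouse gave -0.45, and leaving out the second gave -0.14. Bad overlaps Gpr137 on the opposite strand over 524 bases and shares 15.9% of its sequence windows with it.

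Bid (ENSMUSG00000004446, chr6:120891930-120916853, minus strand), which links death receptors to the mitochondrion when caspase-8 cleaves it, had 10.4 and 12.7 CPM in the control mice and 11.3 and 11.4 CPM in the surgery mice. The surgery mice lay between the control mice. The difference was -0.04 (SE 0.16, edgeR adjusted p = 0.89), and its sign was positive in 4 alternatives. Bid overlaps Bcl2l13 on the opposite strand over 628 bases and shares 15.7% of its sequence windows with it.

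Bcl2l11 (ENSMUSG00000027381, chr2:128126038-128162547, plus strand) encodes Bim, which binds all guardians and is induced when neurons lose trophic support. Its level was 5.75 and 4.49 CPM in the control mice and 6.21 and 8.0 CPM in the surgery mice, from 99, 82, 99 and 135 reads. The groups did not overlap, but the first surgery mouse lay close to the first control mouse. The difference of 0.48 (SE 0.23) did not pass the test (edgeR adjusted p = 0.17), and leaving out mice moved it between 0.29 and 0.66. With GC content and length corrected it was 0.41 (adjusted p = 0.34).

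Casp9 (ENSMUSG00000028914, chr4:141793612-141815976, plus strand), the caspase that the apoptosome activates, had 28.3 and 29.9 CPM in the control mice and 27.5 and 25.3 CPM in the surgery mice. The nearest mice of the groups differed by less than the mice within a group. The difference was -0.14 (SE 0.10, edgeR adjusted p = 0.34) and 0.07 with GC content and length corrected (adjusted p = 0.72), so its direction depended on the correction. It was -0.22 without the first surgery mouse and -0.08 without the second. Casp9 overlaps Cela2a and Ctrc on the opposite strand over 188 bases.

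Of the 9 genes, 1 was called higher (Bcl2) and 1 lower (Bak1), beside 6.75% and 2.25% of all genes tested, and 7 were not called. By adjusted p-value alone, 3 of 9 passed, 2 higher and 1 lower, beside 13.1% and 12.8% of all genes tested. The groups did not overlap for 8 of the 9, beside 65.5% of all genes. Of these 3 were higher and 5 lower in the surgery mice, beside 33.2% and 32.2%. The median log2 fold change was -0.14 over the 9 genes and 0.01 over all genes tested. With GC content and length corrected, the median was 0.03 and only Mcl1 was called.

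The balance of Bax to Bcl2, often read as a rheostat of apoptosis, was formed within each library, where scaling between libraries has no part. Each Bcl2 read was met by 2.19 and 1.72 Bax reads in the control mice, against 1.04 and 1.04 in the surgery mice. Both surgery libraries lay below both control libraries, and the difference of the log2 ratios was -0.90, a surgery ratio of 0.535 of the control ratio. An exact two-sided permutation test gave p = 0.333, the smallest that 2 mice against 2 allow. With GC content and length corrected, the difference was -0.35 (exact permutation p = 0.333). This is less than the distance between the control mice, whose corrected log2 ratios were 0.90 and 0.47. The ratio of Bax to Mcl1 was 0.394 and 0.387 in the control mice, against 0.212 and 0.218 in the surgery mice, a difference of -0.86 on the log2 scale with small spread within groups (exact permutation p = 0.333), and of -0.62 when corrected (exact permutation p = 0.333). The ratio of Bax to Bcl2l1 was 0.172 and 0.137 in the control mice, against 0.154 and 0.159 in the surgery mice, which overlap (difference 0.03, exact permutation p = 1, and 0.17 when corrected, exact permutation p = 0.667). Lower ratios were thus seen against Bcl2 and Mcl1, while the groups overlapped for Bcl2l1.

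**Figure D4:**
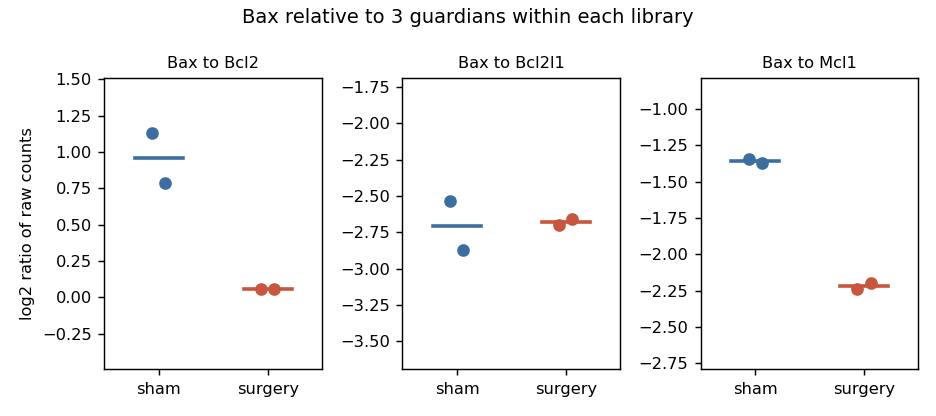
Points give the log2 ratio of Bax reads to Bcl2, Mcl1 and Bcl2l1 reads within each library, for control (sham) and surgery mice, and bars give the group mean. The Bax to Bcl2 ratio is 1.13 and 0.78 in the control mice, against 0.06 and 0.05 in the surgery mice, and the Bax to Bcl2l1 points overlap.

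To set levels of different genes side by side, CPM was divided by the exon length of each gene in kilobases. In the control mice the order of these levels was Bcl2l1 (25.6 CPM per kb), Mcl1 (13.5), Bax (11.4), Bad (8.12), Casp9 (5.60), Bak1 (3.96), Bid (3.27), Bcl2 (1.02) and Bcl2l11 (0.637). No neighbours in this order overlapped over the 2 mice. In the surgery mice Bcl2l1 (20.3 CPM per kb) and Mcl1 (19.8) overlapped, and Bid (3.19) stood above Bak1 (2.47), the other places being as in the control mice. Per kilobase of the longest coding transcript the order differed. Mcl1 (13.5) then stood behind Bax (16.3) in the control mice and overlapped Bad (13.6), Bid (5.30) stood above Bak1 (3.99) in the control mice already, and Bcl2l1 (36.2) kept its lead over Mcl1 (19.8) in the surgery mice.

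The other genes of the pathway were taken as a list of 50, of which 48 were in the table and 43 could be tested. Bcl2a1a, Bcl2a1d, Bcl2l14, Bik and Naip1 had too few reads, and Bcl2a1b and Bcl2l10 were not analysed here. Of the 43, 1 was called higher (Xiap), 1 lower (Dffb) and 41 were not called, beside the 9.01% called over all genes. By adjusted p-value alone Xiap, Mdm2, Bnip3l and Hrk rose and Dffb fell, 5 of 43 beside 26.0%. With GC content and length corrected, edgeR called 0 of the 43, with 3 higher and 6 lower at an unadjusted p under 0.05, beside 8.29% and 14.0% of all genes in that fit.

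Xiap, the inhibitor that binds active caspase-9 and caspase-3 directly, had 51.4 and 45.8 CPM in the control mice and 86.8 and 89.3 CPM in the surgery mice. The groups were widely separated. Xiap rose by 0.86 on the log2 scale (SE 0.08, edgeR adjusted p = 0.0043). The difference was 0.14 with GC content and length corrected, which did not pass (adjusted p = 0.30), at a transcript GC content of 39.0%. Dffb, the nuclease that cuts DNA between nucleosomes after caspase-3 frees it, had 16.1 and 15.7 CPM in the control mice and 10.8 and 10.1 CPM in the surgery mice. Dffb fell by 0.60 (SE 0.13, edgeR adjusted p = 0.019), and its difference of -0.44 with the correction did not pass (adjusted p = 0.12). The call of Dffb was lost without the first control mouse (adjusted p = 0.059), the second control mouse (0.062) or the second surgery mouse (0.069).

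Among the other BCL2 family genes, 2 of 11 tested passed by edgeR's adjusted p-value and 3 by that of DESeq2, beside 26.0% and 28.2% of all genes. DESeq2 gave an adjusted p to 8 of the 11. The further gene that passed with DESeq2 was Bok, an effector-like member named here after its values were seen. It had 81.4 and 69.0 CPM in the control mice and 63.3 and 51.4 CPM in the surgery mice (-0.39, SE 0.13, edgeR adjusted p = 0.064, DESeq2 adjusted p = 0.026), and -0.04 with GC content and length corrected. The difference of Bok was -0.56 without the first surgery mouse (adjusted p = 0.012) and -0.24 without the second (adjusted p = 0.19). Hrk, a neuronal BH3-only gene, had 43.0 and 35.9 CPM in the control mice and 49.7 and 55.6 CPM in the surgery mice. With GC content and length corrected Hrk was higher by 0.49, which did not pass (edgeR adjusted p = 0.078). With the replicate block added to the correction it was higher by 0.50 and passed (adjusted p = 0.015). Without the correction it rose by 0.42 (SE 0.11, edgeR adjusted p = 0.039). It did not pass without the second control mouse (0.29, adjusted p = 0.15), without the second surgery mouse (0.34, 0.11) or without a filter on low counts (0.11). Bnip3l, a mitophagy receptor of the outer membrane, rose by 0.37 (adjusted p = 0.015), which was -0.01 with the correction, and did not pass without the second control mouse (0.29, adjusted p = 0.070). Pmaip1 (Noxa), whose protein binds Mcl-1, had the largest fold change of the list, 1.01 (SE 0.41), from 11, 25, 36 and 31 reads, and did not pass the test (adjusted p = 0.12). It was 0.51 with the correction (adjusted p = 0.54).

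The counts of the remaining arms are read beside the 26.0% of all genes that passed by edgeR's adjusted p-value alone, 28.2% by that of DESeq2 where it gave one and 39.4% with an unadjusted edgeR p under 0.05. Of the 6 genes of the apoptosome and of proteins released from mitochondria, 0 passed by the adjusted p-value of edgeR or DESeq2, and 1 had an unadjusted edgeR p under 0.05. All 5 further caspases had positive log2 fold changes (median 0.35), as did 8733 of the 17144 genes tested. With GC content and length corrected their median was 0.05, and not all of them stayed positive. By adjusted p-value 0 of the 5 passed with either tool, and 1 had an unadjusted edgeR p under 0.05. Of the 7 death receptor genes 0 passed with edgeR, 0 of the 4 to which DESeq2 gave an adjusted p passed with DESeq2, and 2 had an unadjusted edgeR p under 0.05. Fadd, the adaptor of these receptors, was not among those 4 and had the lowest fold change of the list (-0.83, SE 0.29, adjusted p = 0.080), and -0.77 with the correction (adjusted p = 0.19). Of the 3 genes of the p53 arm Mdm2, the ligase that degrades p53, rose by 0.51 (SE 0.09, adjusted p = 0.0098), and its difference of 0.34 with the correction did not pass (adjusted p = 0.10). With the replicate block added to the correction Mdm2 was again at 0.34 and passed (edgeR adjusted p = 0.017). Within the wider list alone, and in uncorrected levels, the pattern over the 4 libraries most like that of Mcl1 was that of Mdm2. The Euclidean distance between centred log2(CPM + 1) profiles was 0.111, followed by Bnip3l (0.204) and Hrk (0.271). With GC content and length corrected the differences were 0.61 for Mcl1, 0.34 for Mdm2, -0.01 for Bnip3l and 0.49 for Hrk, and likeness was not measured there.

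**Figure D5:**
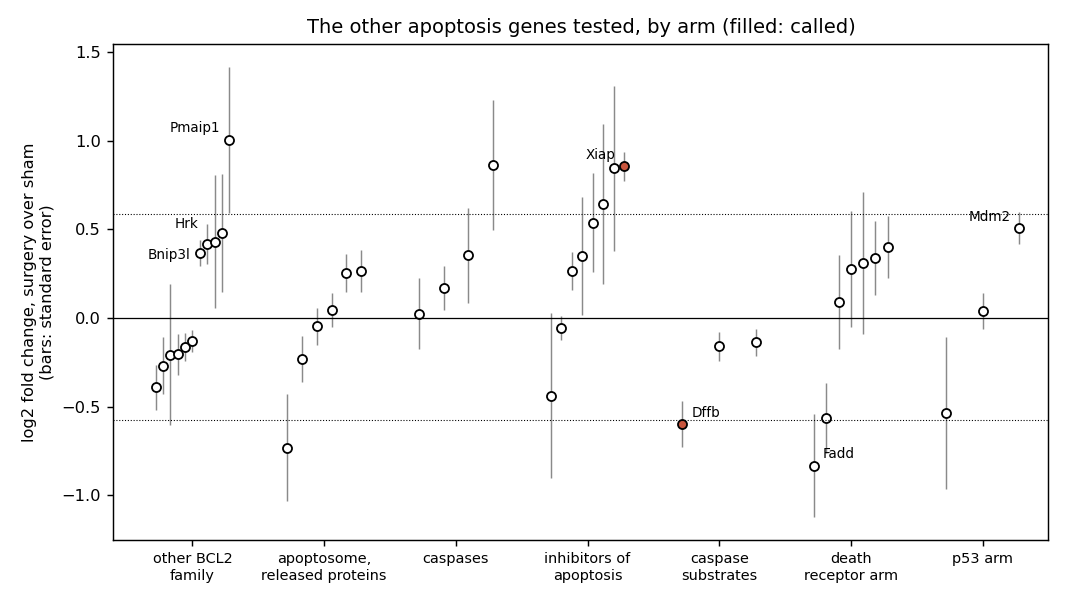
The log2 fold change of surgery over control mice with its standard error is shown by arm for the tested genes of the wider list, apart from 1 gene that is not reported here. Filled points are the called genes Xiap and Dffb, and dotted lines mark the fold thresholds.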

How the data were processed

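Hippocampal poly(A) RNA of 4 mice was sequenced, and the authors, after alignment to mm10 by HISAT, deposited an unnormalized read count per mouse for each of 29300 genes. The submitters' processing notes list HISAT2 2.1.0, Bowtie2 2.2.3, TopHat2 and HTSeq 0.6.0. Use of strand is not given in the sources used here. The deposited table also holds the authors' own comparison as a mean signal, a fold change as a ratio, its log2 value and p-values, none of which was used.

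Counts were tested in R 4.3.3 with edgeR 4.0.16 (filterByExpr with a minimum count of 10, TMM factors from 0.982 to 1.02, glmQLFit without its legacy form, glmQLFTest, Benjamini-Hochberg over 17144 genes), with condition as the only term. Alternatives were DESeq2 1.42.0, limma-voom 3.58.1, other normalizations and filters, the replicate number as a block, leaving out each mouse, and smooth offsets for GC content and transcript length (mgcv 1.9.3, basis size 8). The procedure was tested on simulated counts. A chi-square comparison found that replicates differed beyond sampling noise, at 13.5 per degree of freedom in control and 8.48 in surgery mice. Mitochondrially encoded transcripts other than rRNA took 2.82% and 2.53% of counts in control and 4.45% and 4.49% in surgery mice. Coordinates are those of the deposited table. Lengths, GC content and overlaps are from GENCODE M21, which holds 29238 of the identifiers, 93.2% with the same coordinates. Promoters are from RefSeq and all 9 genes matched.

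All 9 genes are named. Of the wider list, called genes are named, then those with the smallest p until 6, and the genes with the lowest and highest fold change. Of these, 1 gene is not reported here. The members and lists were chosen with earlier results of these data known.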

Additional observations from a re-analysis of the deposited data

How the results depend on the processing

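Over the 9 genes and 14 alternative fits each, 99 of 126 values kept their direction and their side of the call, 17 lost the call, 4 gained it and 6 changed sign. Bid changed sign with library totals (0.0121), GC content and length offsets (0.0305, and 0.0339 with the replicate block) and without the second control mouse (range without a mouse -0.175 to 0.113), and Casp9 with the offsets (0.0750, and 0.0731 with the block). Bnip3l became -0.0142 with the offsets, and -0.0139 with the block added.

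Against 1 gene called higher, there were 0 with RLE scaling, upper quartile scaling, either other filter and DESeq2, 2 with library totals and 2 without the fold threshold, and 0 to 1 when a mouse was left out. Against 1 called lower, there were 0 without the filter, with DESeq2 and with the offsets (with and without the block), and 0 to 1 when a mouse was left out. At an unadjusted p under 0.05 DESeq2 had 2 genes higher and 2 lower. The share of all genes at that level was taken for edgeR only (39.4%), so the DESeq2 count is not read as a result about the 9 genes. For the wider list, the 1 higher became 2 with the replicate block, 0 with the offsets (block or not), 4 without the fold threshold, and 1 to 3 without a mouse. The 1 lower became 0 with library totals, 0 with the offsets (block or not) and 0 to 2 without a mouse.

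Over all genes, 1158 higher and 386 lower became 86 and 71 with the offsets, 274 and 144 with the offsets and block, 2249 and 2201 without the fold threshold, 1377 and 224 with library totals, and 754 to 1312 and 254 to 614 without a mouse. The replicate block alone gave 1289 and 427. The numbers share no stated source, and the correlation of same-numbered deviations, 0.261, rests on 2 pairs. The Bax to Bcl2 difference was -1.08 to -0.73 without a mouse and -0.35 with the offsets, and became 0.0259 for Bax to Bcl2l1. The cause of these shifts was not tested.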
